A study of Mus musculus with 12 samples.

Results

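H3K27me3, the trimethyl mark on lysine 27 of histone H3, was compared between mouse intestinal organoids given arachidonic acid (AA) and organoids given vehicle. All H3K27me3 peaks that the peak caller SEACR had found on chromosomes 1 to 19 were taken, 80900 of the 105301 H3K27me3 peaks and of the 226396 SEACR peaks of all 3 marks in the series. The remaining 24401 H3K27me3 peaks lay on chromosome X and entered the model but are not described. Organoids are cultures grown from isolated intestinal crypts, here in Matrigel with EGF, Noggin, R-spondin and CHIR-99021, a GSK3 inhibitor that activates Wnt signalling and that both groups received. The AA group had 25 µM AA, an omega-6 fatty acid and the precursor of prostaglandins, for 6 days, and the vehicle group had none. There were 2 libraries per group for H3K27me3, 4 of the 12 libraries of the series. The design text of the series mentions Ptger KO organoids, whereas the labels of these libraries name no genotype, strain or age, so the genotype of both groups is not settled here. No label states whether replicate libraries stem from different cultures or mice, and p-values therefore measure only the spread between libraries, which may be technical.

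H3K27me3 is written by Polycomb repressive complex 2 (PRC2) and read by Polycomb repressive complex 1, and it accompanies the silencing of genes that belong to other cell types or stages. Its strongest targets are wide domains over CpG-rich promoters of developmental regulators such as the Hox clusters. In the intestinal crypt, PRC2 is known to hold down differentiation and cell cycle inhibitor genes while stem cells divide. The mark was read by CUT&RUN, in which an antibody brings a nuclease to the mark and the DNA cut out beside it is sequenced. Each library had 1 deposited score per peak, which behaved as the mean coverage per base over the peak times 1 scaling factor per library. Depth was low, with a median raw coverage over all peaks of 1.85 and 1.29 fragments per base with vehicle and 1.19 and 1.60 with AA. A peak of 5 kb or longer is called a domain below, and 3332 peaks qualified. As a look at the labelled tissue, marker lists were read for the mark. Of 21900 protein-coding genes 10184 had an H3K27me3 peak at an end or in the body and 2150 had a domain. Of 16 epithelial genes 7 had a peak, a share like that of all genes, and 0 a domain, and of 18 matched housekeeping genes 2 had a peak and 0 a domain. Domains were held by 8 of 22 fibroblast genes, 4 of 21 matched blood cell genes and 7 of 16 matched endothelial and glial genes.

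The 250 bases before the transcription start are shown for 7 genes whose domains carry the results, with every CG dinucleotide in capitals, since CpG-rich DNA is where PRC2 is recruited in mammals. All 7 stretches lie inside the domain described for the gene, and each is written 5′ to 3′ in the direction of transcription (RefSeq, GRCm38.p6, the mm10 assembly). Slc27a2 (chr2:126552774-126553023, plus strand), Chrm3 (chr13:10360804-10361053, minus strand), Olfm4 (chr14:80000052-80000301, plus strand) and Sfrp5 (chr19:42202253-42202502, minus strand) had more H3K27me3 with AA. Mtcl1 (chr17:66449751-66450000, minus strand) and Sox21 (chr14:118237031-118237280, minus strand) had less. Hoxa9 (chr6:52227371-52227620, minus strand) belongs to one of the widest domains, which moved by little.
Slc27a2: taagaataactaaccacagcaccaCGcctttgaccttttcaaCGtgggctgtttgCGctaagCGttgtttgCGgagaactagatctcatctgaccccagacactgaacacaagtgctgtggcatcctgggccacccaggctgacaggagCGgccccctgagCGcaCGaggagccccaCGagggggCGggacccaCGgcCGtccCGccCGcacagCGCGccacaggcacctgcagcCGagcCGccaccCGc
Chrm3: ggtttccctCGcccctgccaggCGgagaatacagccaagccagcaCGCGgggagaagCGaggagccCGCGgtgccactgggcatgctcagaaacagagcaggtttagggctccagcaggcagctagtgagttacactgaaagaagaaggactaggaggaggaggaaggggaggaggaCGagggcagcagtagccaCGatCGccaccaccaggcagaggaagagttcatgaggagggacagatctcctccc
Olfm4: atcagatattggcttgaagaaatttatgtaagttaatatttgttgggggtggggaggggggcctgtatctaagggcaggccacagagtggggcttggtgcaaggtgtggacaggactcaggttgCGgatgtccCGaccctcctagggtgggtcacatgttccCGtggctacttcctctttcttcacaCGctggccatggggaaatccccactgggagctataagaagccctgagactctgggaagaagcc
Sfrp5: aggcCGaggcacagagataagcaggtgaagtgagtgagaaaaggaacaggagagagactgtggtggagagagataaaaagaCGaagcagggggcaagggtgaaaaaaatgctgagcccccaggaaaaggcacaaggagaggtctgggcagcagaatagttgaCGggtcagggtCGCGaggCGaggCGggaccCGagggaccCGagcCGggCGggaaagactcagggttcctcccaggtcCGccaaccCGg
Mtcl1: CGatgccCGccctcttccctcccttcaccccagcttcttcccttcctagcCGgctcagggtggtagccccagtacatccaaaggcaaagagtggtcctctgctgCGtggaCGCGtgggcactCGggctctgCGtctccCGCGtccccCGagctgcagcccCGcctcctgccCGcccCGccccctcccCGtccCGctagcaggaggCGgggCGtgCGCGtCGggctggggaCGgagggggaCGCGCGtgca
Sox21: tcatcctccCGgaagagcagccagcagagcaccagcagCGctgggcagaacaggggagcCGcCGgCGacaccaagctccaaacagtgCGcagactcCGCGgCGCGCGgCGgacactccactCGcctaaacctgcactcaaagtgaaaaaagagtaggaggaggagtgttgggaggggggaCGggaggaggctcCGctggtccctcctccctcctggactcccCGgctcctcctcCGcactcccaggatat
Hoxa9: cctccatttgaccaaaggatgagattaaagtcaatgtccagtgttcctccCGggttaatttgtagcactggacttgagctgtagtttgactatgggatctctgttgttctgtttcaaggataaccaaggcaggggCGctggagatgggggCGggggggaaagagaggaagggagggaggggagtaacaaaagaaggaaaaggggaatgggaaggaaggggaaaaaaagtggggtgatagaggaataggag
These stretches hold 19 CG in Slc27a2, 10 in Chrm3, 4 in Olfm4, 13 in Sfrp5, 25 in Mtcl1, 17 in Sox21 and 3 in Hoxa9. The motif CG reads the same on both strands, and at least 1 CG was present in 93.0% of the 16457 protein-coding genes with a sequence on these chromosomes. The median of all these genes was 10 CG, and it was 14 over the 1142 genes whose start lay in a domain. Starts in domains with more H3K27me3 after the centring described below had a median of 13.5 CG (52 genes) and starts in domains with less had 15 (31 genes), so both sets resembled domains in general.

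How far the 4 libraries could be compared depended on peak length. Short peaks were numerous and weakly reproducible: the 19660 peaks under 1 kb covered 16.2 Mb, and across them the 2 vehicle libraries had a Spearman correlation of -0.05 and the 2 AA libraries 0.12, given as a description over peaks that share these libraries. For 44780 peaks of 1 to 2 kb the correlations were 0.15 and 0.24, and for 13128 peaks of 2 to 5 kb they were 0.53 and 0.52. From there on replicates resembled each other closely, with 0.84 and 0.82 for 2563 peaks of 5 to 10 kb, 0.94 and 0.92 for 609 peaks of 10 to 20 kb, and 0.97 in both groups for 160 peaks of 20 kb or longer. The median spread between replicates (SD, log2 scale) went from 0.668 under 1 kb to 0.0532 at 20 kb or longer. Libraries of different groups correlated at 0.92 to 0.93 in the longest class, close to but under the values within groups. The gap was wider at 5 to 10 kb, where they correlated at 0.63 to 0.66. Over all peaks of 5 kb or longer the range was 0.73 to 0.75, against 0.89 and 0.87 within groups.

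**Figure D1:**
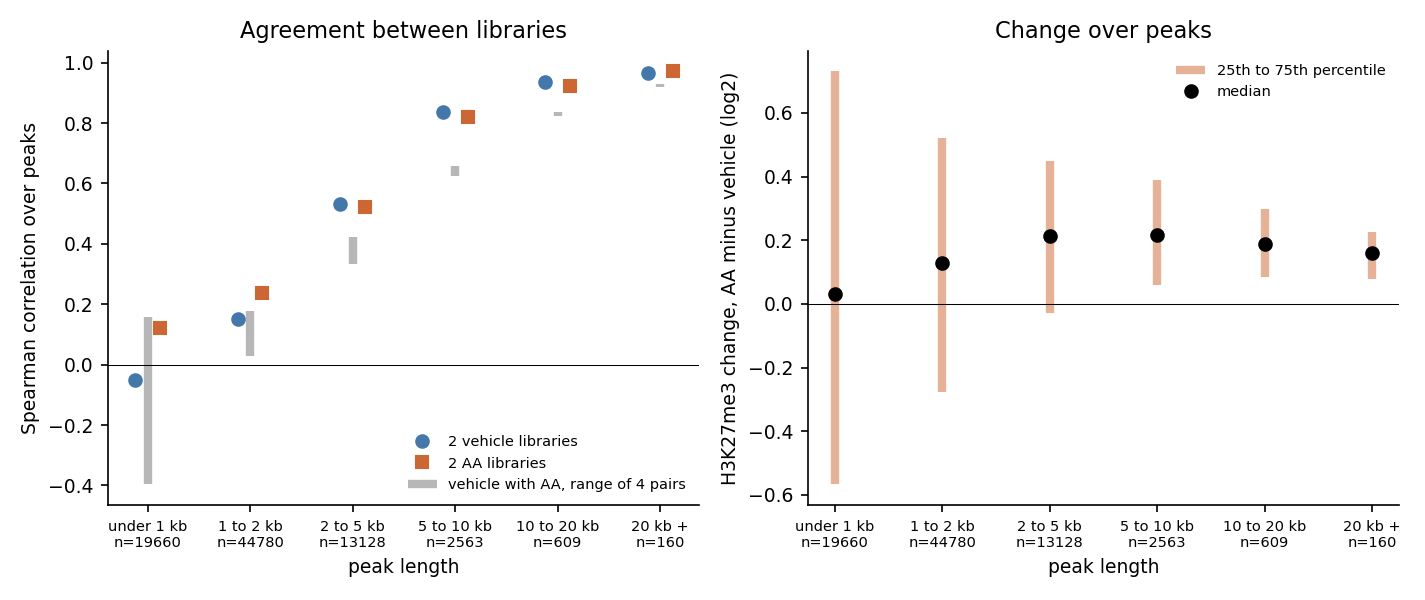
H3K27me3 by peak length on chromosomes 1 to 19. Left, the Spearman correlation over peaks between the 2 vehicle libraries (circles), the 2 AA libraries (squares) and, as grey bars, the range over vehicle and AA pairs; right, the AA minus vehicle change (log2) as the median and the range of the middle quartiles. Replicates correlate at about 0 under 1 kb and at 0.97 at 20 kb or longer, and the median change lies between 0.03 and 0.22.

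The median change, AA minus vehicle on the scale of log2(score + 0.0329), was above 0 in every length class and small beside single domains. It was 0.03 under 1 kb, 0.13 at 1 to 2 kb, 0.21 at 2 to 5 kb, 0.22 at 5 to 10 kb, 0.19 at 10 to 20 kb and 0.16 at 20 kb or longer. The share of peaks above 0 went from 51.1% under 1 kb to 86.4% at 10 to 20 kb. Across the 3332 domains the median score was 0.188 and 0.183 with vehicle and 0.223 and 0.224 with AA, and both AA libraries were thus higher. Without the scaling the order was lost: the median raw coverage of domains was 3.24 and 2.27 with vehicle and 2.36 and 2.92 with AA, so the groups overlapped. The general rise of the domains therefore holds on the deposited scaling, whose basis is not given in the sources used here, and the part of the scaling in it was not tested. Domains at gene ends (1728) had a median of 0.21, those in gene bodies (613) 0.17, those within 50 kb of a gene (732) 0.24 and distal ones (259) 0.15. All 19 chromosomes had a positive median, from 0.14 on chromosome 1 to 0.28 on chromosome 16.

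Whether long domains moved more than short peaks was asked library by library. The median log2 value of domains minus that of peaks under 1 kb was 0.98 and 0.52 with vehicle and 0.80 and 1.06 with AA, and the groups overlapped. The difference between groups was 0.18 (exact two-sided permutation p = 0.667, where 2 against 2 libraries cannot give less than 0.333), and it was -0.046 without vehicle replicate 2.

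Single peaks were tested with limma over all 105301 peaks, with Benjamini-Hochberg adjustment and a threshold of 0.05, and this is the all-peak model below. On chromosomes 1 to 19 it called 471 peaks higher (0.582% of those tested) and 46 lower (0.0569%), 517 in all (0.639%). This balance depended on the scaling: 47 were higher and 30 lower with each library centred on its median, 20 and 38 when centred on domains, 78 and 69 with quantile normalization, and 1 and 9 among MACS2 peaks. Of the domains it called 162 higher (4.86%) and 9 lower (0.27%), together 5.13%, and with the same 3 scalings 16 and 7, 7 and 10, and 16 and 11. Because short peaks were poorly reproducible, a second model, the domain model below, took only peaks of 5 kb or longer. It called 825 domains higher (24.8%) and 48 lower (1.44%), together 26.2%. When each library was centred on its own median of these domains, which removes a shift of 0.20, the centred domain model called 137 higher (4.11%) and 91 lower (2.73%), together 6.84%. The groups did not overlap in 2004 domains that were higher with AA (60.1%) and 234 that were lower (7.02%).

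How many calls were made depended on single libraries and on the model. Without any 1 library the all-peak model called 9 to 16 domains, and without limma's trend and robust options it called 0, although 56 domains then had an unadjusted p under 0.05. The domain model without trend and robust options called 344 higher and 26 lower. In the domain model 260 rises and 11 falls were called in the whole set and in each of the 4 fits without 1 library, and 22 rises and 8 falls were also called with centring in each such fit. These 30 domains are called stable below. After merging peaks that lay within 3 kb, 151 of 48267 regions were higher (0.313%) and 23 lower (0.0477%). The counts were 8 higher and 18 lower when centred on the median, 4 and 16 when centred on domains and 12 and 13 with quantile normalization. In the fits without 1 library 0 were called by limma, when 2990 to 5181 had an unadjusted p under 0.05.

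The largest rises in domains were at genes of several kinds, among them solute carrier, nuclear receptor, homeobox and MHC genes. Slc27a2 encodes a very-long-chain acyl-CoA synthetase that takes part in fatty acid uptake. Its domain of 6347 bp at the gene end (chr2:126551800-126558146, mm10) scored 0.0532 and 0.0662 with vehicle and 0.311 and 0.294 with AA, a change of 1.86 ± 0.33 (SE; all-peak adjusted p = 0.000474, domain adjusted p = 1.18e-09). Both AA libraries were far above both vehicle libraries, and 60.1% of all domains were higher with AA without overlap. Raw coverage with vehicle was 0.916 and 0.818 fragments per base there, under the medians over all peaks of 1.85 and 1.29. It was 0.876 and 0.551 at the Fam234b gene end and 0.964 and 0.839 in the Nr5a2 body, both described below. Domains this weak in vehicle, here and below, may have entered the peak set through the AA libraries alone, which was not tested. Slc7a2, a cationic amino acid transporter gene, had a domain of 5896 bp at its end (chr8:40861084-40866979) that scored 0.0938 and 0.126 with vehicle and 0.44 and 0.385 with AA. That change was 1.65 ± 0.17 (all-peak adjusted p = 1.03e-10). Around Fam234b on chromosome 6 a run of 3 neighbouring domains rose. The one at the gene end (chr6:135189166-135197336) scored 0.0509 and 0.0445 with vehicle and 0.253 and 0.275 with AA, a change of 1.88 ± 0.43 (all-peak adjusted p = 0.0136). Its neighbours, near Hebp1 and in the Fam234b body, changed by 1.26 ± 0.39 and 1.52 ± 0.56, and those passed in the domain model (adjusted p = 2.67e-05 and 1.12e-05) but not in the all-peak model.

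Nr5a2 encodes LRH-1, a nuclear receptor of the intestinal crypt. A domain of 10943 bp in its body (chr1:136944265-136955207) scored 0.056 and 0.0678 with vehicle and 0.257 and 0.26 with AA, a change of 1.62 ± 0.37 (all-peak adjusted p = 0.0143). H2-T3, a non-classical MHC class I gene, rose by 1.51 ± 0.25 over 10349 bp (adjusted p = 9.81e-05), from 0.0866 and 0.0894 to 0.317 and 0.305. The homeobox gene Nkx1-2 rose by 1.52 ± 0.26 (adjusted p = 0.000176), from 0.0786 and 0.0925 to 0.325 and 0.287. In these 3 genes the AA libraries scored more than any vehicle library, and the same held at the forkhead gene Foxn3 (1.27 ± 0.20, adjusted p = 3.8e-05) and at Slc16a12, a member of the monocarboxylate transporter family (1.23 ± 0.21, adjusted p = 0.000134). Such a separation was found at 60.1% of all domains. Raw coverage with vehicle was 1.49 and 1.11 fragments per base at H2-T3 and 1.35 and 1.14 at Nkx1-2. These values too lay under the vehicle medians over all peaks. Both domains may have entered the peak set through the AA libraries alone, which was not tested. Chrm3 encodes the muscarinic M3 receptor. Its gene-end domain (chr13:10357307-10363432) scored 0.107 and 0.151 with vehicle and 0.316 and 0.326 with AA and rose by 1.14 ± 0.19 (all-peak adjusted p = 0.000114). Shank2, a scaffold protein gene, changed by 1.28 ± 0.45 and was called only by the 2 domain models, with adjusted p = 3.19e-05 before centring. Of the genes of this and the preceding paragraph, Slc27a2, Slc7a2, Fam234b, Nr5a2, H2-T3, Nkx1-2, Foxn3, Slc16a12 and Shank2 were among the stable domains.

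**Figure D2:**
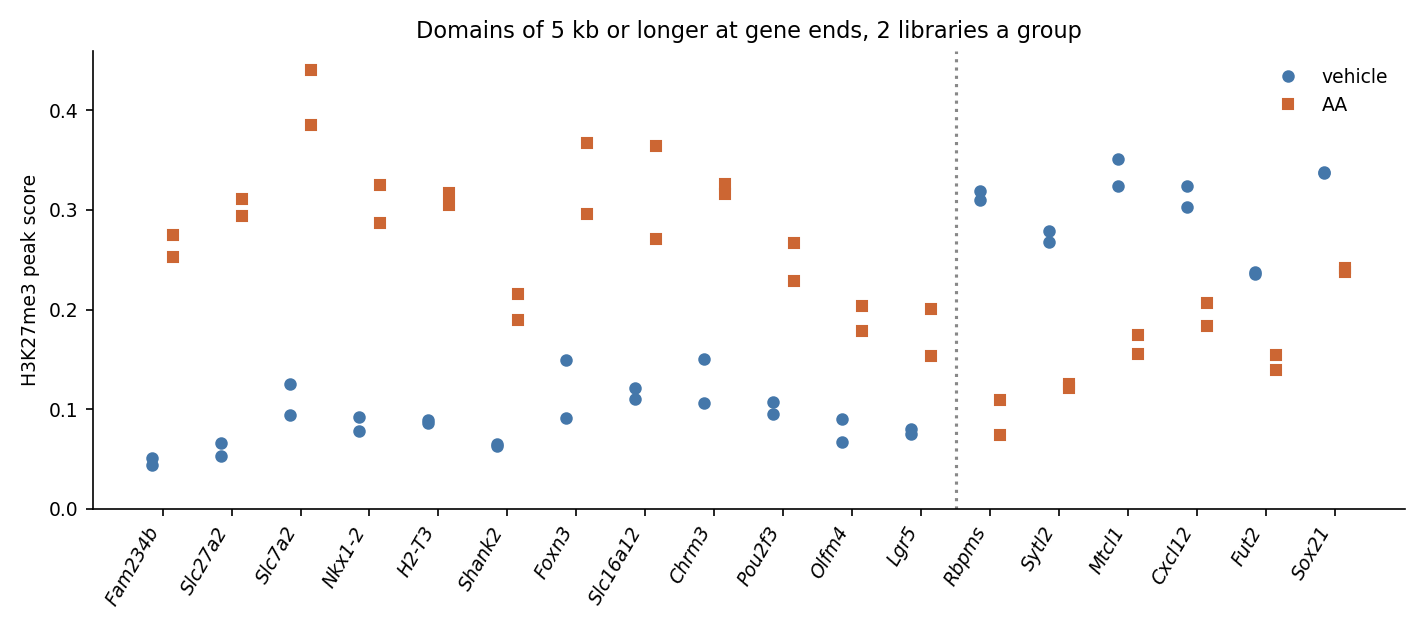
H3K27me3 peak score (vertical axis, from 0) of gene-end domains of named genes in the 2 vehicle libraries (circles) and the 2 AA libraries (squares), with rises left of the dotted line and falls right of it. Slc27a2 lies at 0.0532 and 0.0662 with vehicle and 0.311 and 0.294 with AA, and Rbpms at 0.319 and 0.31 with vehicle and 0.0738 and 0.109 with AA.

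Falls were fewer than rises. Rbpms encodes an RNA-binding protein. Its gene-end domain of 5208 bp (chr8:33924534-33929741) scored 0.319 and 0.31 with vehicle and 0.0738 and 0.109 with AA, a change of -1.498 ± 0.24 (all-peak adjusted p = 7.96e-05). Sytl2, a synaptotagmin-like gene of vesicle traffic, had a domain of 8011 bp (chr7:90297765-90305775) with scores of 0.279 and 0.268 with vehicle and 0.125 and 0.122 with AA, a change of -0.97 ± 0.22 (adjusted p = 0.0101). Mtcl1, a microtubule cross-linking gene, went from 0.324 and 0.351 to 0.155 and 0.174 over 7584 bp (chr17:66445864-66453447), a change of -0.91 ± 0.15 (adjusted p = 0.000134). At all 3 genes both vehicle libraries scored well above both AA libraries, and 7.02% of all domains were lower with AA without overlap. Raw coverage at Rbpms was 0.782 and 1.43 fragments per base with AA, under the AA medians over all peaks of 1.19 and 1.60. This domain may have entered the peak set through the vehicle libraries alone, which was not tested. Cxcl12, a chemokine gene, fell by less: 0.324 and 0.303 with vehicle and 0.184 and 0.206 with AA over 6676 bp (all-peak adjusted p = 0.0186). These 4 domains were among the 8 stable falls.

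Further falls at and in genes passed in the domain model only, apart from the high-scoring domains named last. At Sox21, a SoxB2 transcription factor gene, a domain of 21474 bp (chr14:118222272-118243745) scored 0.337 and 0.338 with vehicle and 0.242 and 0.237 with AA, a change of -0.44 ± 0.12 (all-peak adjusted p = 0.0553, domain adjusted p = 0.00191). The libraries of a group were nearly equal there, and the groups did not overlap, as at 7.02% of all domains in this direction. Fut2, the fucosyltransferase gene of intestinal surface glycans, went from 0.238 and 0.235 to 0.139 and 0.154 over 10957 bp, a change of -0.59 ± 0.21 (domain adjusted p = 0.00359). Its neighbour Sec1, also a fucosyltransferase gene, changed by -0.43 (domain adjusted p = 0.00619). In the body of Gli2, an effector of hedgehog signalling, 2 domains of 10670 bp and 7016 bp changed by -0.61 and -0.52 (domain adjusted p = 0.00183 and 0.00434), while the gene-end domain changed by -0.18 and did not pass. Cck, the cholecystokinin hormone gene, scored 0.386 and 0.381 with vehicle and 0.315 and 0.322 with AA (-0.25 ± 0.09, domain adjusted p = 0.0379). Tdrp, Clstn2 and Nt5c1a changed by -0.72, -0.71 and -0.70 (domain adjusted p = 0.008, 0.0103 and 0.0119). Of the 5 domains with a mean score above 1, the one in the Tmem267 body fell in both models. It scored 1.27 and 1.46 with vehicle and 0.93 and 0.931 with AA. The distal ones nearest to Tcte2 and Esp38 also fell in both models. The one at Sfi1 and the distal one on chromosome 9 did not pass. In vehicle replicate 1 the domain nearest to Esp38 scored 6.69 and the one on chromosome 9 scored 125. Whether these high-scoring domains lie in repeated sequence was not tested, so their falls may not be loss of the mark.

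Genes were read at their longest peak at an end or in the body, and of 10184 genes with such a peak the all-peak model called 202 higher (1.98%) and 18 lower (0.177%). The Hox clusters, the classic Polycomb targets, moved with the bulk of the domains. All 39 Hox genes lay in 9 distinct domains, so they are not 39 measurements, with a median change over genes of 0.18 beside 0.21 over the 2150 genes whose longest peak was a domain. The longest peak on these chromosomes, 144400 bp over the Hoxc cluster (chr15:102903674-103048073), scored 0.46 and 0.444 with vehicle and 0.518 and 0.516 with AA. Its change was 0.18 ± 0.06 (all-peak adjusted p = 0.199, domain adjusted p = 0.0525), and -0.018 after centring. The Hoxa3 to Hoxa13 domain (chr6:52191910-52260360) went from 0.545 and 0.483 to 0.616 and 0.596 and rose by 0.23 ± 0.05 (all-peak adjusted p = 0.0207), and it accounts for all 9 Hox genes called by the all-peak model. Hoxd8 (0.16), Hoxb13 (0.10) and Hoxb5 (0.09) did not pass in either, and their sign turned after centring on domains (-0.043, -0.10 and -0.11). Of the Hox genes 0 were called by the centred domain model.

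Other developmental transcription factor genes behaved similarly. Of 123 such genes with a domain, 30 rose and 2 fell in the domain model, where 28.1% of all genes with a domain rose and 1.21% fell. After centring 1 rose and 3 fell (Sox21, Irx2 and Gsc), beside 4.42% and 2.74% of all genes. The median change of the list was 0.16. Foxf2, a forkhead factor of gut mesenchyme, scored 0.442 and 0.411 with vehicle and 0.535 and 0.537 with AA and rose by 0.31 ± 0.06 (all-peak adjusted p = 0.0024). Pax3, a neural crest and muscle factor, rose by 0.25 ± 0.06 over 44267 bp (all-peak adjusted p = 0.0243), and Otx1 and Tbx1 rose by 0.31 and 0.32 (adjusted p = 0.0186 and 0.0121). Gsx1, a homeobox gene of the brain, rose by 0.62 ± 0.10 (adjusted p = 3.86e-05) from 0.246 and 0.274 to 0.422 and 0.411, and its change passed after centring (adjusted p = 0.0269). Irx2 changed by -0.31, with 0.304 and 0.325 in vehicle and 0.246 and 0.249 in AA (domain adjusted p = 0.0341).

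Among signalling genes of development, 14 of 37 with a domain rose and 1 fell in the domain model, and 3 rose and 1 fell after centring, against 28.1% and 1.21%, and 4.42% and 2.74%, of all genes with a domain. Fgf9, a growth factor gene of gut mesenchyme development, had a body domain that scored 0.131 and 0.114 with vehicle and 0.34 and 0.301 with AA, a rise of 1.19 ± 0.19 (all-peak adjusted p = 7.96e-05). It was one of the stable domains. Fgf15, the ileal hormone that restrains bile acid synthesis, rose by 0.71 ± 0.14 (adjusted p = 0.00134), from 0.19 and 0.207 to 0.397 and 0.3.

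Wnt targets and inhibitors had 14 genes with a domain, of which 6 rose and 0 fell in the domain model and 4 rose and 0 fell after centring, with a median of 0.21. Of all genes with a domain 28.1% rose in the domain model and 4.42% after centring. Their calls included the secreted inhibitor genes Sfrp5 and Notum. Gene-end domains of other secreted inhibitor genes, Sfrp1, Sfrp2, Frzb and Wif1, changed by -0.049, 0.13, 0.29 and 0.40. Those were not called after centring. The calls of the list also included Lgr5, before and after centring, and the same domain is counted again among the crypt stem cell genes below. Sfrp5, a secreted Frizzled-related inhibitor (chr19:42198526-42204371), scored 0.146 and 0.126 with vehicle and 0.271 and 0.266 with AA and rose by 0.84 ± 0.21 (all-peak adjusted p = 0.0271). Notum, an enzyme that inactivates Wnt ligands, rose by 0.82 ± 0.16 (adjusted p = 0.00146), from 0.179 and 0.153 to 0.321 and 0.314. The ligand gene Wnt9b rose by 0.73 ± 0.19 (adjusted p = 0.041). Sp5, a target of Wnt signalling, rose by 0.42 ± 0.11 in the all-peak model (adjusted p = 0.0354) but did not pass after centring (adjusted p = 0.267). At Sfrp5, Notum, Wnt9b and Sp5 the AA libraries scored above both vehicle libraries, as they did at 60.1% of all domains.

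Crypt stem cell genes with a domain numbered 4 of 23, and all 4 passed as higher in the domain model, 2 of them after centring, and 0 in the all-peak model. Among all genes with a domain, 28.1% rose in the domain model and 4.42% after centring. Over the 16 genes of the list with a peak of any length the median change was 0.14. It was also 0.14 over all 10184 genes with a peak. Olfm4, a marker of crypt base columnar stem cells, had a gene-end domain of 5226 bp (chr14:79999574-80004799) with scores of 0.0904 and 0.0669 with vehicle and 0.179 and 0.204 with AA. Its change was 1.01 ± 0.42 (all-peak adjusted p = 0.385, domain adjusted p = 0.000532, centred 0.0131). Lgr5, the R-spondin receptor gene that marks the same cells, had a domain of 5415 bp (chr10:115585546-115590960) with 0.0753 and 0.0806 with vehicle and 0.154 and 0.2 with AA. Its change was 0.91 ± 0.44 (all-peak adjusted p = 0.507, domain adjusted p = 0.00213, centred 0.0359), and after centring it was called in 1 of the 4 fits without 1 library. The groups did not overlap at either gene, and 60.1% of all domains were likewise higher with AA without overlap. The domains of Olfm4 and Lgr5 were weak in vehicle beside the 0.46 of the Hoxc cluster. Their vehicle scores also lay under the vehicle medians over all peaks on these chromosomes, 0.0977 and 0.0976. Both domains may have entered the peak set through the AA libraries alone, which was not tested. Msi1, an RNA-binding protein gene, changed by 0.56 ± 0.17 in its body, and Bmi1, a Polycomb repressive complex 1 gene, by 0.22 ± 0.07 over 22080 bp (domain adjusted p = 0.00146 and 0.0365, centred 0.106 and 0.937).

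Domains at genes of the differentiated lineages were few. Of 15 secretory and enteroendocrine factor genes with a domain, 4 rose and 0 fell in the domain model, and 1 rose and 1 (Lmx1a) fell after centring. Among all genes with a domain, 28.1% rose and 1.21% fell in the domain model, and 4.42% rose and 2.74% fell after centring. Pou2f3, the master regulator of tuft cells, which sense luminal parasites, scored 0.0948 and 0.107 with vehicle and 0.267 and 0.229 with AA, a rise of 1.07 ± 0.28 (all-peak adjusted p = 0.0447, centred domain adjusted p = 0.00223). Atoh1, which directs cells to the secretory fate, rose by 0.41 ± 0.07 (all-peak adjusted p = 0.00059), from 0.363 and 0.349 to 0.518 and 0.449, but did not pass after centring (adjusted p = 0.264). The enteroendocrine factor genes Insm1 and Neurod1 changed by 0.38 and 0.66 and passed in the domain model (adjusted p = 0.00588 and 0.00445). Tuft cell genes had 4 domains, of which 2 rose in the domain model and 1 after centring. That 1 was again Pou2f3, which stands in both lists, so the 2 centred rises are the same domain. Enteroendocrine hormone genes had 3, of which 1 (Cck) fell. Paneth and goblet cell genes had 2 domains with 0 calls, among them the mucin gene Muc2 (0.181 and 0.198 with vehicle, 0.178 and 0.183 with AA). Of the enterocyte genes, 1 had a domain, the peptide transporter gene Slc15a1, which changed by 0.60 ± 0.20 (domain adjusted p = 0.00167). Mme, the neprilysin gene of the brush border, had a shorter peak of 4309 bp that rose by 1.61 ± 0.37 (all-peak adjusted p = 0.0149), from 0.06 and 0.0651 to 0.279 and 0.239. Its vehicle scores lay under the vehicle medians over all peaks. This peak may have entered the peak set through the AA libraries alone, which was not tested.

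Of the intestinal identity factors 4 had a domain, and 2 of them (Nr5a2 and Prdm1) rose in the domain model and after centring. Among all genes with a domain, 28.1% rose in the domain model and 4.42% after centring. Prdm1 encodes Blimp1, the repressor that marks the immature gut epithelium. Its gene-end domain scored 0.193 and 0.202 with vehicle and 0.336 and 0.343 with AA and rose by 0.69 ± 0.13 (all-peak adjusted p = 0.0015), and its body domain of 7155 bp changed by 1.15 ± 0.33 (domain adjusted p = 3.76e-05). Cdx2, the caudal factor of intestinal identity, had only a short weak peak of 1918 bp, at 0.0484 and 0.0743 with vehicle and 0.00806 and 0.0528 with AA, which did not pass.

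Genes of AA metabolism and its products were read as a list of their own. Of 8 prostaglandin genes with a domain, 3 rose and 0 fell in the domain model and 1 rose after centring, with a median of 0.25. Among all genes with a domain, 28.1% rose in the domain model and 4.42% after centring, with a median of 0.21. Slco2a1, the prostaglandin uptake transporter, had 2 body domains that rose: 0.123 and 0.118 with vehicle against 0.26 and 0.252 with AA over 12267 bp (0.91 ± 0.23, all-peak adjusted p = 0.0408), and 0.125 and 0.146 against 0.316 and 0.308 over 8230 bp (1.04 ± 0.18, adjusted p = 0.000394). The lipoxygenase gene Alox8 rose by 0.43 ± 0.09 (adjusted p = 0.00395), and Ptges, a prostaglandin E synthase gene, changed by 0.56 ± 0.16 (domain adjusted p = 0.00198). The domain at Ptger2, a prostaglandin E2 receptor gene, was at 0.237 and 0.247 with vehicle and 0.258 and 0.263 with AA, a change of 0.09 ± 0.14 that did not pass. Of 38 PPAR and fatty acid oxidation genes 3 had a domain, of which 1 rose in the domain model, Plin5 of the lipid droplet coat (0.77 ± 0.23, adjusted p = 0.000711). After centring Plin5 rose and Rxrg fell. Ppara, the fatty acid sensing nuclear receptor gene, had a peak of 4718 bp with 0.087 and 0.0738 against 0.143 and 0.156 (0.69 ± 0.49), which did not pass. Another Ppara gene-end peak, of 1105 bp, moved the other way and did not pass either. It scored 0.138 and 0.0785 with vehicle and 0.0704 and 0.0601 with AA (-0.49 ± 0.64).

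The Polycomb machinery's own genes had 5 domains, of which 2 rose in the domain model and 0 after centring. Among all genes with a domain, 28.1% rose in the domain model and 4.42% after centring. Cbx8, a Polycomb repressive complex 1 subunit gene, rose by 0.46 ± 0.10 over 20759 bp (all-peak adjusted p = 0.00541), from 0.282 and 0.27 to 0.384 and 0.401. In the body of Jarid2, which encodes a PRC2 cofactor, a peak of 714 bp scored 0.589 and 0.541 with vehicle and 0.279 and 0.317 with AA and fell (-0.86 ± 0.07, adjusted p = 3.42e-14). Cyclin-dependent kinase inhibitor genes had 2 domains with 0 calls in any of the 3 models. The one at Cdkn2a, a classic Polycomb target, scored 0.337 and 0.379 with vehicle and 0.398 and 0.37 with AA, so its groups overlapped.

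The remaining lists are given by their domains in the domain model and after centring. Among all genes with a domain, 28.1% rose and 1.21% fell in the domain model, and 4.42% rose and 2.74% fell after centring. Fetal-like epithelium genes had 3, of which 2 rose and then 1, among them Smad6, an inhibitor of BMP signalling, which went from 0.222 and 0.143 to 0.304 and 0.38 (0.82 ± 0.15, all-peak adjusted p = 0.00142). The YAP/TAZ targets had 7, of which 3 rose and then 0, and fibroblast genes had 8, of which 3 rose and then 0, with Vim at 0.51 ± 0.13 (all-peak adjusted p = 0.0403). Blood cell genes had 4, of which 3 rose and then 0. Endothelial and glial genes had 7, of which 1 rose and then 0, and olfactory receptor genes also had 7, of which 2 rose and then 0. Vomeronasal receptor genes had 2 domains, of which 0 were called and then 1 as lower. In none of these lists was a domain called lower before centring. In a culture of mixed cell types, fewer cells with the mark and less mark per cell cannot be told apart.

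**Figure D3:**
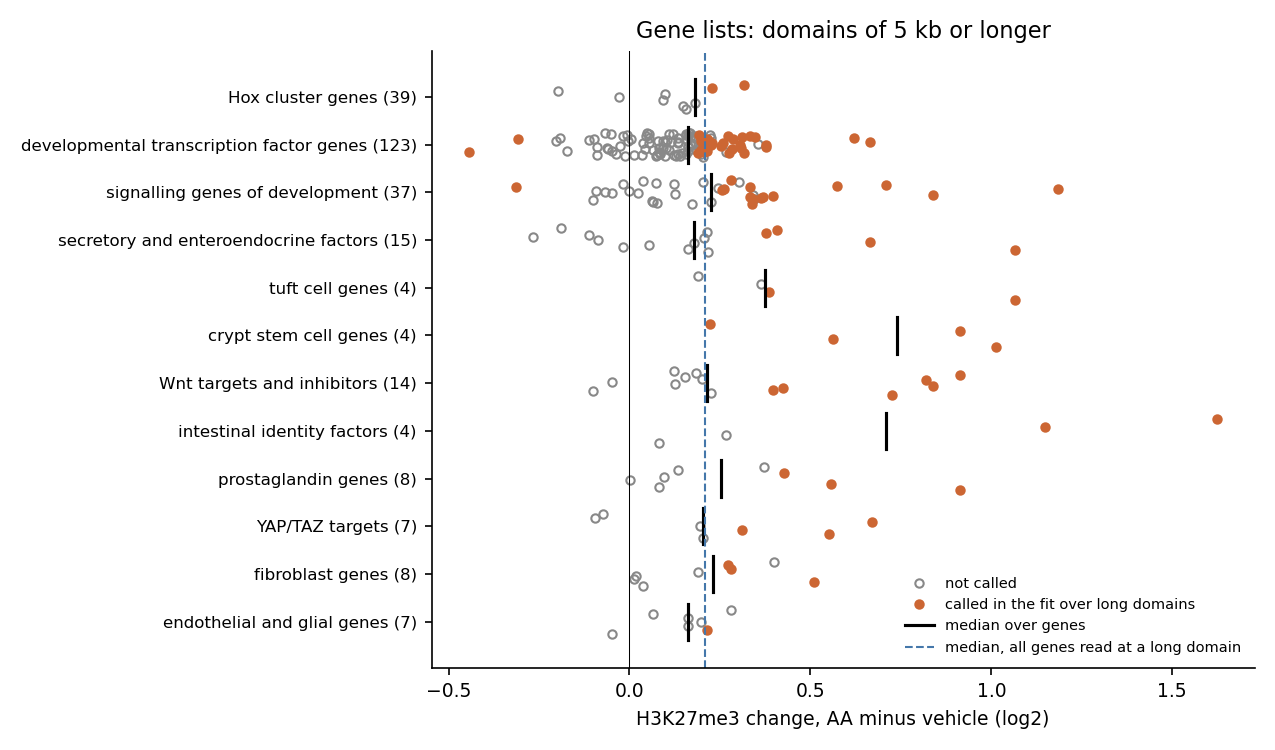
AA minus vehicle H3K27me3 change (horizontal axis, log2) of domains by gene list, with 1 point per distinct domain, filled where the domain model called it, the number of genes in brackets and a black bar at the median over genes. Crypt stem cell genes (median 0.74, 4 genes) and intestinal identity factors (median 0.71, 4 genes) lie right of the dashed line at 0.21, the median of all genes with a domain. At peaks of any length the medians were 0.14 over 16 crypt stem cell genes and 0.36 over 13 intestinal identity factors. The median over all genes with a peak was 0.14.

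Among peaks under 5 kb single calls were more frequent in number but rarer per peak. The all-peak model called 128 higher and 22 lower under 1 kb, 54 and 8 at 1 to 2 kb, and 127 and 7 at 2 to 5 kb. Of the 52 named peaks and domains that the all-peak model called, 37 of them domains, 6 to 10 kept the call when 1 library was left out. Coq8a, a gene of coenzyme Q synthesis, had a body peak of 4819 bp at 0.0477 and 0.059 with vehicle and 0.327 and 0.35 with AA (2.11 ± 0.32, adjusted p = 2.18e-05). Pfkfb3, a regulator of glycolysis, had one of 1997 bp at 0.0489 and 0.0606 against 0.303 and 0.263 (1.85 ± 0.38, adjusted p = 0.00305), and Ak4, a mitochondrial adenylate kinase gene, rose by 1.89 ± 0.39 (adjusted p = 0.00403). In the body of Esrrg, a nuclear receptor of oxidative metabolism, 2 peaks of 1002 and 1163 bp rose by 2.54 ± 0.58 and 1.85 ± 0.47 (adjusted p = 0.0132 and 0.041). The longer Esrrg gene-end peak of 4721 bp scored 0.0546 and 0.0957 with vehicle and 0.214 and 0.193 with AA. Its change of 1.15 ± 0.41 did not pass (adjusted p = 0.264). At Coq8a and Pfkfb3 both vehicle libraries lay under the median peak and both AA libraries above it. Raw coverage with vehicle was 0.821 and 0.730 fragments per base at Coq8a and 0.841 and 0.749 at Pfkfb3. Peaks this weak in vehicle may have entered the peak set through the AA libraries alone, which was not tested. Among falls, Filip1l (1.45 and 1.46 against 0.784 and 0.879 over 1124 bp, adjusted p = 1.07e-15) and Muc3, a membrane mucin gene (0.374 and 0.331 against 0.135 and 0.23 over 1573 bp, adjusted p = 0.00137), had a score well above the median peak in both vehicle libraries. The Filip1l peak scored far above the domain over the Hoxc cluster, which had 0.46 and 0.444 with vehicle. Whether the Filip1l peak lies in repeated sequence was not tested, so its fall may not be loss of the mark. The keratin gene Krt79 fell by 1.01 on the log2 scale over 2761 bp (adjusted p = 0.0235).

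The shortest peaks had large changes on few fragments. Hes6, a Notch pathway gene, had a peak of 404 bp with 0.198 and 0.38 in vehicle and 0.0175 and 0.0114 in AA (-2.71 ± 0.62, adjusted p = 0.0135), which is a raw coverage of 3.41 and 4.70 against 0.186 and 0.149 fragments per base. Clu, a marker of injury-induced revival stem cells, had a peak of 402 bp with 0.184 and 0.374 against 0.0366 and 0.079 (-1.75 ± 0.40, adjusted p = 0.0145). Eif2b2, of a translation initiation factor, fell over 394 bp by 2.09 ± 0.42 (adjusted p = 0.00251), while Coro6 rose over 462 bp by 2.16 ± 0.50 (adjusted p = 0.0162). At the peaks of Hes6 and Clu the 2 vehicle libraries also lay far apart.

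H3K4me3, the mark of active promoters, had been measured in libraries of the same groups, and 1203 gene ends carried both a domain and an H3K4me3 peak. The H3K4me3 libraries need care: their median raw coverage was 3.38 and 2.35 with vehicle and 1.37 and 1.46 with AA, and AA replicate 2 stood apart, with a first principal component score of 154 where the others had -70.2 to -25.5. At these gene ends the H3K4me3 change was below 0 at 79.0%, with a median of -0.38, so a fall of H3K4me3 was the general direction there on the deposited scaling. Over all peaks on these chromosomes limma called 896 H3K4me3 peaks higher (1.57%) and 800 lower (1.41%). Over the 1203 pairs 15 were called higher and 46 lower. At the 69 pairs with a domain called higher after centring, H3K4me3 was below 0 at 60 and was called lower at 12 and higher at 0. At the 36 pairs with a domain called lower, it was above 0 at 17 and was called higher at 9 and lower at 2. H3K27ac, the acetyl mark of active elements, was paired at 29 of the domains called higher, with a median change of 0.09 and 0 calls in the limma fit. Over all 180 domains paired with H3K27ac at a gene end, the median was -0.02 and 0 were called, so the 0 calls do not set these domains apart.

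The difference between the H3K27me3 change and the H3K4me3 change was fitted over the 8 libraries of both marks at 3741 gene ends. It was called higher at 117 (3.13%) and lower at 73 (1.95%), and at the gene ends with a domain at 56 (4.66%) and 11 (0.914%). The balance turned to 96 higher and 220 lower with each library centred on its median and was 239 and 116 when centred on domains. At a threshold of 0.01 only 4 were called. Without either H3K4me3 vehicle library 0 were made (unadjusted p under 0.05 at 787 and 750 gene ends), 135 without H3K4me3 AA replicate 2, 414 (148 higher and 266 lower) without H3K27me3 vehicle replicate 1, 126 without H3K27me3 AA replicate 1, 96 without H3K27me3 AA replicate 2 and 693 without H3K4me3 AA replicate 1. At Slc27a2, H3K4me3 scored 1.08 and 1.06 with vehicle and 0.532 and 0.417 with AA (-1.14 ± 0.18, adjusted p = 1.82e-07), and the difference of the changes was 3.003 ± 0.29 (adjusted p = 0.00502). Chrm3 had 0.971 and 0.93 against 0.356 and 0.259 (-1.57 ± 0.21, adjusted p = 1.33e-10), and Slc7a2 had 0.536 and 0.553 against 0.304 and 0.22 (-1.003 ± 0.26, adjusted p = 0.01). At Fam234b, which had the largest H3K27me3 rise, the H3K4me3 change of -0.38 ± 0.16 did not pass (adjusted p = 0.199).

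At Sfrp5 H3K4me3 fell from 0.325 and 0.374 to 0.166 and 0.109 (-1.22 ± 0.34, adjusted p = 0.0236), and at Notum by 0.88 ± 0.27 on the log2 scale (adjusted p = 0.0427). At the stem cell genes it did not pass: the change was -0.61 ± 0.26 at Olfm4 (adjusted p = 0.191) and -0.14 ± 0.16 at Lgr5 (adjusted p = 0.678), while the difference of the changes passed at Olfm4 (1.63 ± 0.31, adjusted p = 0.0306) but not at Lgr5 (1.05 ± 0.29, adjusted p = 0.0733). At 5 domains that fell, H3K4me3 rose, although over all 36 pairs with a domain called lower after centring the median H3K4me3 change was -0.24. Rbpms had H3K4me3 scores of 0.501 and 0.508 with vehicle and 1.28 and 1.16 with AA (1.23 ± 0.17, adjusted p = 6.26e-10), and its difference of the changes was -2.73 ± 0.27 (adjusted p = 0.00502). Sox21 went from 0.381 and 0.382 to 1.34 and 1.12 (1.62 ± 0.18, adjusted p = 2.06e-15), and Fut2 from 0.118 and 0.169 to 0.589 and 0.399 (1.61 ± 0.31, adjusted p = 9.71e-05). Mtcl1 and Sytl2 rose by 0.88 ± 0.21 and 0.93 ± 0.25 (adjusted p = 0.0036 and 0.0142). At Cxcl12 H3K4me3 fell together with H3K27me3, from 0.243 and 0.472 to 0.15 and 0.0954 (adjusted p = 0.0162).

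**Figure D4:**
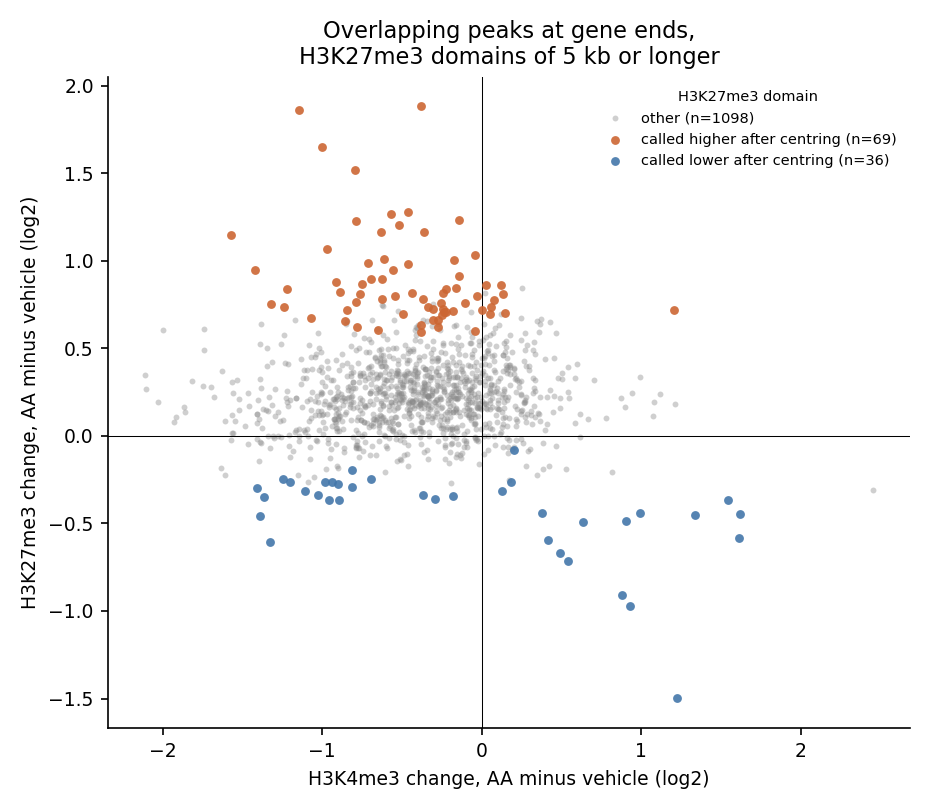
AA minus vehicle change of H3K4me3 (horizontal) and of H3K27me3 (vertical), both log2, at the 1203 gene ends with both a domain and an H3K4me3 peak, coloured by the call of the centred domain model. Of the 69 domains called higher, 60 lie left of 0 for H3K4me3, and of the 36 called lower 17 lie right of 0.

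Domains differed by the other marks they carried. The 252 gene-end domains that overlapped both an H3K4me3 and an H3K27ac peak had a median change of 0.32, and 47.2% were called higher and 0.794% lower in the domain model. The 1137 with H3K4me3 alone had 0.21, with 30.3% higher and 1.58% lower, and the 332 with neither had 0.18, with 15.4% and 0.301%. After centring the shares called higher were 15.1%, 3.08% and 1.20%, and the shares called lower 2.38%, 3.08% and 0.904%. Across 5 equal classes of mean score the median change lay between 0.19 and 0.22, while the share called higher in the domain model went from 12.7% in the lowest class to 33.0% in the highest. These domain sets were compared by their counts alone, and the difference between sets was not tested.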

How the data were processed

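H3K27me3 CUT&RUN peaks of mouse intestinal organoids were analysed from the peak scores, a signal that the authors deposited as 1 value per peak and library. The submitters' processing notes name SEACR, MACS2 and the mm10 build, without versions. The aligner is not given in the sources used here, nor is the scaling. Multiplied by peak length, 100% of the scores under 1000 steps were whole multiples of a library's step (tolerance 0.1 step), so that score over step gave the raw coverage. The table's control libraries were read as the vehicle group. Changes are AA minus vehicle on log2(score + 0.0329), the pseudocount being the 5th percentile of the positive scores, and they understate the change of weak peaks. The test was limma 3.58.1 (trend and robust) in R 4.3.3, adjusted over all peaks of the fit, and was tried on simulated data. Python 3.11.15, pandas 2.3.3 and scipy 1.17.1 were used for the rest. The centring of the domain model was added after the data were seen. Gene positions were RefSeq's for the same assembly (21900 protein-coding genes), each read at its longest peak within 1 kb of an end or in its body, and neighbouring genes can share a peak. The named genes are those of the 3 length classes with the largest called changes, the longest peaks, up to 4 called members and the 2 longest of each of 24 lists, and fixed genes; Slc16a12, Foxn3, Fut2, Sec1, Irx2, Cck, Ptger2, Gsc, Lmx1a, Rxrg, Hebp1 and the distal domains were chosen after their values were seen, as were other genes called only by the domain model. The members and lists were chosen with earlier results of these data known, and some genes stand in several lists. A few genes that the rule names are not reported here. Chromosome X was left out by the rule for choosing peaks.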

Additional observations from a re-analysis of the deposited data

How the results depend on the processing

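The number of calls depended on the setting. The 517 peaks called became 235 at a threshold of 0.01, 77 with each library centred on its median, 58 when centred on domains, 147 with quantile normalization, 95 among the strongest 25% of peaks, 10 among MACS2 peaks, 0 by limma without trend and robust (6364 at an unadjusted p under 0.05), and 43 to 86 without 1 library. The 171 domains called became 91, 23, 17, 27, 38, 1 and 0 under the same settings in that order, 305 with a limit of 2 kb, 46 with a limit of 10 kb and 873 in the domain model. Fits added after the data were seen gave 370 in the domain model without trend and robust, 869 without domains of a mean score above 1 and 1061 on chromosomes 1 to 19 alone, and without 1 library 9 to 16 were called in the all-peak model. Leaving out vehicle 1, vehicle 2, AA 1 or AA 2 gave 590, 402, 745 and 744 in the domain model and 35, 54, 299 and 323 after centring, and the lowest and highest of all these fits were 9 and 745. The 174 merged regions called became 34 at 0.01, 106 with a larger pseudocount, 26 and 20 with the 2 centrings, 25 with quantile normalization, 0 by limma without trend and robust (3837 unadjusted), 311 merged within 1 kb, 48 within 10 kb, and 0 without any 1 library. The 190 differences from H3K4me3 became 4 at 0.01, 316 and 355 with the 2 centrings, and 0 to 693 without 1 library. The causes were not tested.

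The replicate numbers did not pair the libraries (correlation of same-numbered deviations 0.00808 over all peaks and 0.0229 over domains). With the number as a replicate block, calls were 753 peaks, 203 domains, 905 in the domain model, 324 after centring, 835 merged regions and 0 differences from H3K4me3 (1110 at an unadjusted p under 0.05). The gap between domains and short peaks, 0.18, ranged from -0.046 to 0.42 without 1 library, and it was not run with MACS2 peaks, which hold too few domains. After centring on all peaks, centring on domains and quantile normalization, the change turned at Hoxb13 (-0.012, -0.10 and -0.043), Hoxb5 (-0.018, -0.11 and -0.10), Cdkn2a (-0.014, -0.10 and -0.11) and Ptger2 (-0.015, -0.11 and -0.13). Centring on domains turned Hoxc10 (-0.018) and Hoxd8 (-0.043), and quantile normalization turned Sfi1 (0.013). With 1 to 2 fragments per base over the median peak, single short peaks rest on few fragments.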
